A study of Mus musculus with 35 samples.

Results

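The genes described here are 9 members of the Ms4a family: Ms4a1, Ms4a3, Ms4a4a, Ms4a4b, Ms4a4c, Ms4a6b, Ms4a6c, Ms4a6d and Ms4a7. They were taken as the rows of the count table whose Ensembl identifier carries one of these symbols, and all 9 were found among the 53379 genes of the table. The libraries came from female C57BL/6 mice bearing orthotopic pancreatic tumors of T110299 cells, a line from a mouse whose engineered alleles include a floxed and an R172H Trp53 allele and Ptf1a-Cre. Every mouse carried a tumor, so a healthy spleen was not part of the comparison. Treated mice received 50 µg poly(I:C) complexed with jetPEI, called poly(I:C)c, intravenously on days 18 and 20 after tumor induction, and mice called untreated received glucose according to the general methods and no treatment according to the account of the sequencing; organs were taken on the day after the second injection. Sorted myeloid-derived suppressor cells (MDSC) of both types, PMN-MDSC (CD11b+ Ly6C-low Ly6G+) and M-MDSC (CD11b+ Ly6C-high Ly6G-), were sequenced from spleen and tumor. Each condition had 4 libraries, except treated spleen PMN-MDSC and treated tumor M-MDSC, which had 3, and 4 libraries of whole tumor lysate came from untreated mice. Organs and cell types of 1 mouse gave several libraries, but the columns carry no mouse number.

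Ms4a genes encode small proteins that cross the membrane several times and lie at the cell surface or on vesicles, where several associate with immune receptors. The family is expressed across blood and tissue leukocytes, and members mark particular lineages. Ms4a1 encodes CD20 of B cells, Ms4a3 is a marker of granulocyte-monocyte progenitors, Ms4a4b is known from T cells, and Ms4a4a and Ms4a7 are known from macrophages. Cells sense poly(I:C), a double-stranded RNA analog, as they would a virus, and respond with type I interferon.

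All 9 genes lie in 1 cluster on chromosome 19 of GRCm38, between 11249675 and 11640851, a stretch of 391.2 kb. From low to high coordinate the order is Ms4a1, Ms4a7, Ms4a4a, Ms4a4c, Ms4a4b, Ms4a6c, Ms4a6b, Ms4a6d and Ms4a3. Neighbors in this row can be close copies, which bears on how reads are assigned. Over the coding sequence, Ms4a4b and Ms4a4c were 91.7% identical, Ms4a6b and Ms4a6d 79.8%, and Ms4a6b and Ms4a6c 74.4%. The first 30 coding bases of the most similar members, read from the annotated transcripts of GENCODE M21 on GRCm38, show this, and capitals mark bases that differ from the first sequence of the same group.
Ms4a4b, chr19:11449919-11449948, plus strand: atgcaaggacaggaacagaccaccatggca
Ms4a4c, chr19:11414817-11414846, plus strand: atgcaaggacaggaacagaccaccatggca
Ms4a6b, chr19:11520339-11520368, plus strand: atgattccacaagtagtgaccagtgagact
Ms4a6d, chr19:11603263-11603292, minus strand: atgattccacaagtagtgaccagtgagact
Ms4a6c, chr19:11471105-11471134, plus strand: atgattccacaGgtagtgaccaAtgagacC
Ms4a4b and Ms4a4c do not differ in these bases, nor do Ms4a6b and Ms4a6d, and Ms4a6c differs from both at 3 of 30. Most of the annotated transcript sequence can still be told apart. Of all stretches of 50 bases, 8.19% in Ms4a4c, 5.85% in Ms4a6c, 3.44% in Ms4a6b, 2.31% in Ms4a6d and 2.24% in Ms4a4b also occur in another Ms4a gene, and none does in the remaining members. Values of these 5 genes are uncertain by the reads that fall there. The shares run over all annotated transcripts of a gene, with 8821 distinct stretches for Ms4a4b and 1747 for Ms4a4c. With genes outside the family counted, the share in Ms4a6c was 10.5%.

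The MDSC libraries held 793070 to 4357105 counts (median 2459369) and the bulk tumor libraries 3771590 to 8886115. Levels are given as CPM, read counts scaled by library total and TMM factor, and levels of different genes are compared only as FPKM, which is CPM per kilobase of exon. With 3 counts taken as the least that can be told from 0, the floor was 0.565 to 3.83 CPM in MDSC and 0.307 to 0.774 CPM in bulk tumor, and it covers counting error only. P-values measure the spread between libraries that the labels list as separate samples, and each library is a pool of cells, so fewer cells of a type and less RNA in each cell cannot be told apart.

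The cell types were checked against marker lists, and the tumor libraries sorted as PMN-MDSC matched their label in part. Transcripts of 10 neutrophil markers summed to 22161 to 41045 CPM in untreated spleen PMN-MDSC but to 1430 to 4485 CPM in untreated tumor PMN-MDSC. Ly6g, which encodes the antigen of the sort gate, was at 37.5 to 101 CPM in the first and at 0 to 8.98 CPM in the second. All 10 macrophage markers were detected in tumor PMN-MDSC, and their sum was 10570 to 13583 CPM untreated and 9062 to 18395 CPM treated, against 3718 to 8270 CPM in untreated tumor M-MDSC. The neutrophil sum was nonetheless above that of untreated tumor M-MDSC, at 232 to 576 CPM, without overlap, and 5 of 9 neutrophil markers tested were lower in tumor M-MDSC. In treated mice Ly6g was at 360.4 to 470.1 CPM in spleen and 5.06 to 86.4 CPM in tumor PMN-MDSC. Values for tumor PMN-MDSC below are therefore values of the libraries labelled so. A pair of libraries also stood apart: 1 treated spleen M-MDSC library summed to 11885 CPM over 10 B cell markers, against 148 to 428 CPM in the other 3, with 11661 CPM of it from Ighm, and 1 treated tumor M-MDSC library summed to 27354 CPM over the macrophage markers, against 5312 and 10988 CPM.

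In untreated mice, M-MDSC of the spleen held more Ms4a transcripts than PMN-MDSC of the spleen. The 9 genes summed to 906 ± 89.0 CPM in spleen M-MDSC and 108 ± 38.5 CPM in spleen PMN-MDSC (SD, n = 4 each), and to 952 ± 150.3 and 475 ± 50.1 CPM in the corresponding tumor cells. Per length, Ms4a6c led in spleen M-MDSC with 156 ± 15.1 FPKM, followed by Ms4a4a with 132 ± 14.3, Ms4a4c with 71.1 ± 13.8, Ms4a6d with 56.6 ± 12.2 and Ms4a6b with 51.8 ± 6.74 FPKM. In tumor M-MDSC, Ms4a4a led with 208 ± 27.5 FPKM, ahead of Ms4a6c with 139 ± 25.4 FPKM. The order by FPKM depends on the annotated exons of all transcripts of a gene. These span 836 bases for Ms4a4a and 4485 for Ms4a6b, whose coding sequences have 708 and 732 bases. Ms4a1, Ms4a3 and Ms4a4b had mean levels under 5 FPKM in every condition.

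**Figure D1:**
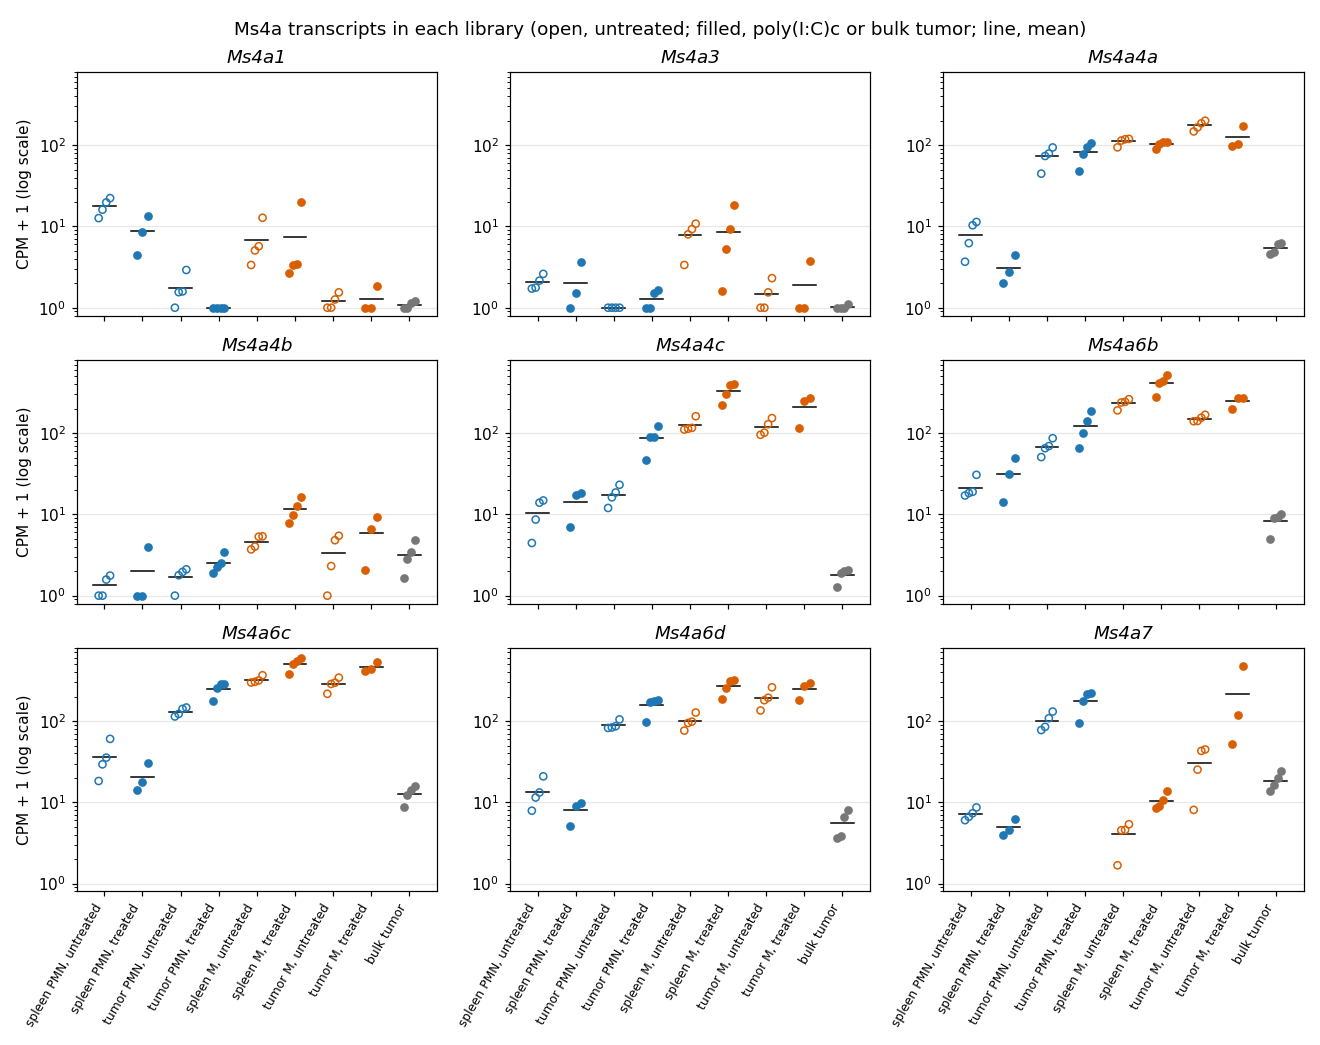
CPM + 1 on a log axis for each of the 9 genes (panels) in each library (points, in ascending order within a condition) of the 9 conditions, with open points for untreated MDSC, filled points for treated MDSC and bulk tumor, and lines for means. Ms4a4c, Ms4a6b, Ms4a6c and Ms4a6d stand higher in M-MDSC than in PMN-MDSC of the same organ and treatment on average, whereas Ms4a7 stands high in tumor MDSC of both types.

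**Figure D2:**
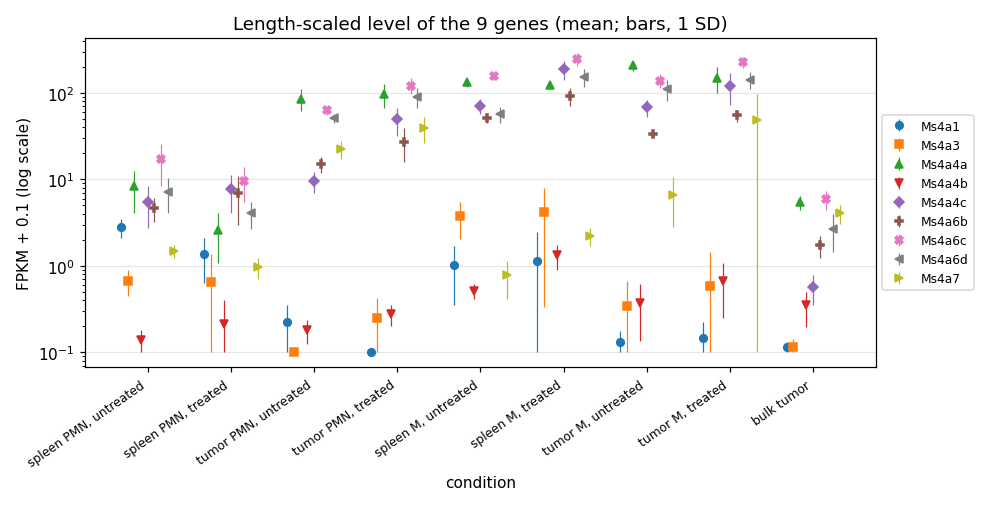
Mean FPKM + 0.1 on a log axis of the 9 genes in the 9 conditions, with bars of 1 SD over 3 or 4 libraries; bars are cut at 0 FPKM. Ms4a6c and Ms4a4a hold the highest means in untreated M-MDSC of both organs, and Ms4a1, Ms4a3 and Ms4a4b hold means under 5 FPKM throughout.

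M-MDSC and PMN-MDSC of untreated spleens were compared first. Of the 6 members with enough counts to test, 5 were higher in M-MDSC and Ms4a1 was lower, in a comparison in which 64.4% of all tested genes passed, 33.4% higher and 30.9% lower (edgeR quasi-likelihood F-test, Benjamini-Hochberg adjusted p under 0.05). Ms4a6c, the most abundant member, stood at 297, 304, 316 and 366 CPM in M-MDSC and at 17.3, 28.3, 34.5 and 59.4 CPM in PMN-MDSC. All M-MDSC libraries lay above all PMN-MDSC libraries, and the log2 difference was 3.36 ± 0.34 (SE), or 10.3-fold (adjusted p = 3.24e-05). The differences of the remaining 4 were 4.18 ± 0.32 for Ms4a4a, 3.91 ± 0.35 for Ms4a4c, 3.67 ± 0.24 for Ms4a6b and 3.13 ± 0.32 for Ms4a6d on the log2 scale, again with no overlap, as for 25% of all tested genes in that direction. In PMN-MDSC, Ms4a4a had 7, 13, 13 and 36 counts and Ms4a4c 9, 18, 19 and 48. Both therefore reached the minimum mean of 25 counts through M-MDSC, where they are high. Ms4a7, with too few counts to test, was at 0.677 to 4.37 CPM in M-MDSC and 5.03 to 7.66 CPM in PMN-MDSC, so its order was the opposite and the groups did not overlap, as for 33.1% of all tested genes in that direction. With no filter on low counts its log2 difference was -0.87 ± 0.46 (adjusted p = 0.163). Among the marker lists, 6 of 6 monocyte markers were higher in M-MDSC, with a median log2 difference of 3.39, and 6 of 9 macrophage markers tested were lower, and their part in these differences was not tested.

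Ms4a1, which encodes the B cell antigen CD20, was at 11.7, 15.1, 18.8 and 21.3 CPM in PMN-MDSC and at 2.36, 4.06, 4.71 and 11.8 CPM in M-MDSC of untreated spleens. The groups overlapped by 1 library each, and the log2 difference was -1.42 ± 0.43 (adjusted p = 0.0156). Ms4a1 had 6, 12, 25 and 27 counts in M-MDSC, so it reached the minimum mean of 25 counts through PMN-MDSC, where it is high. Without 1 M-MDSC library the difference was -1.25 (adjusted p = 0.0619). The B cell marker list, which does not contain Ms4a1, moved the same way, with all 10 genes detected in both groups and sums of 222 to 382 CPM in PMN-MDSC and 114 to 220.3 CPM in M-MDSC; its part in the result was not tested.

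In untreated tumors the same 5 genes were higher in M-MDSC and Ms4a7 was lower. All 6 members tested passed, where 13.0% of all tested genes did, 5.73% higher and 7.25% lower. Ms4a4c was at 94.5, 100.3, 128 and 152 CPM in M-MDSC and at 11.01, 15.2, 17.6 and 22.1 CPM in PMN-MDSC, without overlap, a log2 difference of 2.83 ± 0.24 (adjusted p = 2.99e-05). Ms4a4a, Ms4a6b, Ms4a6c and Ms4a6d differed by 1.10 to 1.25 on the log2 scale, 2.14- to 2.38-fold. Ms4a7 was at 76.6, 83.9, 107 and 130.1 CPM in PMN-MDSC and at 7.07, 24.3, 41.997 and 43.8 CPM in M-MDSC, a log2 difference of -1.75 ± 0.42 (adjusted p = 0.022). None of the 6 overlapped between the cell types, as for 10.6% of all tested genes higher and 9.27% lower. The Ms4a7 call was lost without any of 3 of the 8 libraries, at log2 differences of -1.60 to -1.70 (adjusted p = 0.0511 to 0.0784). The macrophage marker sums given above were likewise higher in PMN-MDSC, without overlap, the monocyte marker sums were higher in M-MDSC (5223 to 5913 against 1842 to 2418 CPM), and the part of either in the results was not tested.

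**Figure D3:**
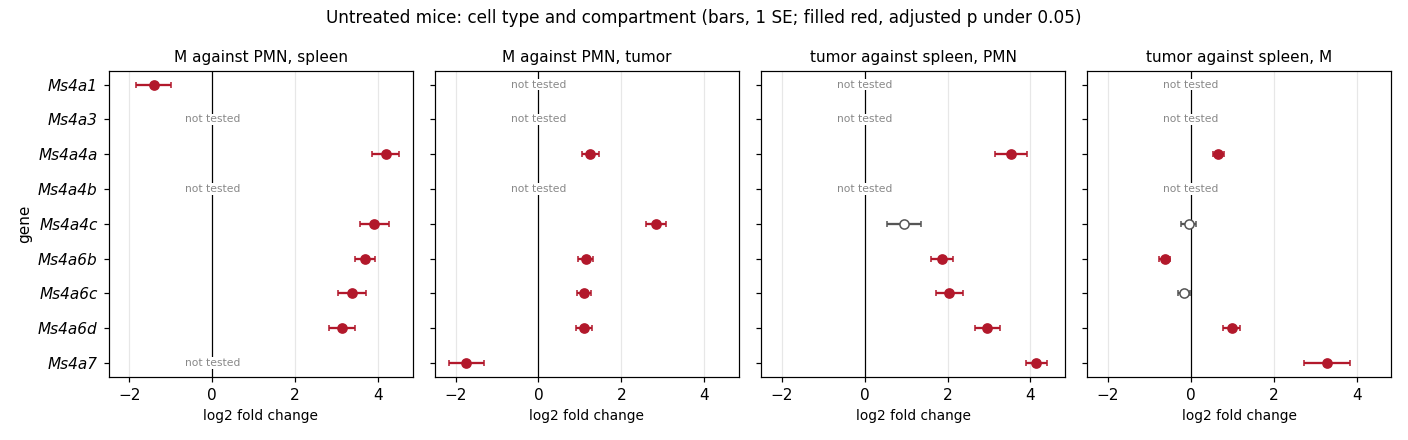
Log2 fold changes (horizontal axis) of the 9 genes (vertical axis) in untreated mice, comparing M-MDSC with PMN-MDSC within each organ, and tumor with spleen within each cell type, with bars of 1 SE; filled red points passed an adjusted p of 0.05. Positive values mean higher in M-MDSC or in tumor, and Ms4a7 lies near 4.14 for tumor against spleen in PMN-MDSC and near -1.75 for M-MDSC against PMN-MDSC in tumor.

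The next comparison was between the organs, with Ms4a7 at the largest log2 difference of the 6 members tested in PMN-MDSC. In PMN-MDSC of untreated mice, 5 of 6 members tested were higher in tumor, where 29.4% of all tested genes were higher and 59.1% passed in either direction. Ms4a7 was at 5.03, 5.63, 6.34 and 7.66 CPM in spleen, and all tumor libraries, at 76.6 CPM or more, lay above it, as in 22.8% of all tested genes, 17.6-fold higher (log2 4.14 ± 0.25, adjusted p = 1.76e-06). Ms4a4a, known from alternatively activated macrophages, was at 2.68, 5.23, 9.34 and 10.4 CPM in spleen and 43.7, 72.7, 78.0 and 92.9 CPM in tumor (log2 3.53 ± 0.39, 11.6-fold). In spleen these were 7, 14, 20 and 22 counts for Ms4a7 and 7, 13, 13 and 36 for Ms4a4a. Both genes therefore reached the minimum mean of 25 counts through tumor, where they are high. Ms4a6d was higher by 2.96, Ms4a6c by 2.04 and Ms4a6b by 1.86 on the log2 scale, with no overlap either. Ms4a4c did not pass by edgeR, with a difference of 0.96 ± 0.41 (adjusted p = 0.0654). It passed by DESeq2 at 0.98 (adjusted p = 0.042), where 60.6% of all tested genes did, in the fit over all 9 conditions at 0.95 (adjusted p = 0.0342), where 61.6% did, and at 1.30 without 1 spleen library (adjusted p = 0.0185). Macrophage markers were also higher in these tumor libraries, at 10570 to 13583 against 685 to 2000 CPM in spleen with 10 of 10 detected in both, and neutrophil markers lower. Monocyte markers summed to 1842 to 2418 CPM in tumor against 655 to 1227 CPM in spleen, and 5 of 6 were higher, with a median log2 difference of 2.74. The part of these lists in the differences was not tested.

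In M-MDSC the members differed between the organs in both directions. Of 6 members tested, 4 passed, 3 higher in tumor and 1 lower, where 28.4% of all tested genes passed, 15.7% higher and 12.7% lower. Ms4a7 was at 0.677, 3.53, 3.58 and 4.37 CPM in spleen and at 7.07 to 43.8 CPM in tumor, without overlap, as in 16.8% of all tested genes (log2 3.28 ± 0.56, adjusted p = 0.0011). These were 2, 9, 10 and 19 counts in spleen and 13, 19, 64 and 167 in tumor, so it reached the minimum mean of 25 counts through tumor. Without 1 tumor library Ms4a7 had too few counts to be tested. Ms4a6d was at 75.3, 93.8, 97.5 and 126 CPM in spleen and 134, 179.7, 193 and 259.6 CPM in tumor, which does not overlap (log2 0.98 ± 0.20, adjusted p = 0.00353). Ms4a4a was at 93.1 to 119 and 147 to 199 CPM (log2 0.66 ± 0.14, adjusted p = 0.00353). Ms4a6b went the other way, from 189.7, 237, 242 and 261 CPM in spleen to 139, 140.2, 154 and 167 CPM in tumor, without overlap as in 14.6% of all tested genes (log2 -0.63 ± 0.13, adjusted p = 0.00385). Ms4a4c and Ms4a6c did not pass, at log2 differences of -0.06 ± 0.18 and -0.16 ± 0.15. Thus Ms4a6b and Ms4a6d, whose coding starts shown above do not differ, had opposite signs between the organs. In the fit over all 9 conditions the calls of Ms4a6b and Ms4a4a were lost, at log2 differences of -0.64 (adjusted p = 0.112) and 0.65 (adjusted p = 0.0673). Macrophage markers summed to 829 to 1104 CPM in spleen and 3718 to 8270 CPM in tumor M-MDSC, without overlap, and 9 of 10 were higher in tumor, with a median log2 difference of 2.95. Neutrophil markers summed to 2266 to 5051 and 232 to 576 CPM, and of 7 tested 5 were called lower in tumor and 1 higher. The part of these lists in the differences was not tested.

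The next question was how treatment with poly(I:C)c changed these transcripts. Interferon-stimulated genes served as the check of the treatment: of 10 listed genes, 9 rose in spleen PMN-MDSC, 9 in tumor PMN-MDSC, 10 in spleen M-MDSC and 5 in tumor M-MDSC, with median log2 changes of 3.43, 3.09, 3.62 and 2.60. The list was chosen with earlier results of these data known.

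In spleen M-MDSC, 4 of the 5 members tested rose and 0 fell, where 9.96% of all tested genes rose and 19.4% passed in either direction. Ms4a6d was at 75.3, 93.8, 97.5 and 126 CPM untreated and at 184, 253, 309 and 321 CPM treated. Every treated library lay above every untreated one, as in 13.5% of all tested genes, and the change was 2.63-fold (log2 1.40 ± 0.20, adjusted p = 0.00142). Ms4a4c was at 109.7, 112, 115 and 161 CPM untreated and at 222, 305, 392 and 401 CPM treated, without overlap and 2.57-fold higher (log2 1.36 ± 0.20, adjusted p = 0.00157). For both, the call held with each of the 8 libraries left out.

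Ms4a6b and Ms4a6c rose in the same cells too. Ms4a6b was at 189.7 to 261 CPM untreated and 280.1 to 514 CPM treated (log2 0.77 ± 0.18, adjusted p = 0.0141), and Ms4a6c at 297 to 366 and 380.4 to 589 CPM (log2 0.61 ± 0.15, adjusted p = 0.0165), both without overlap. In the fit over all 9 conditions both calls were lost (adjusted p = 0.0525 for Ms4a6b and 0.0854 for Ms4a6c). They also depend on single libraries. Without 1 untreated library both were lost (adjusted p = 0.0501 for Ms4a6b and 0.059 for Ms4a6c), and Ms4a6c was lost without either of 2 further untreated libraries (adjusted p = 0.0513 and 0.0566). Ms4a4a was at 93.1, 113, 117 and 119 CPM untreated and 88.8, 103, 108 and 109.1 CPM treated, an overlapping pair of groups that differed by -0.16 ± 0.12 on the log2 scale (adjusted p = 0.399). Without the treated library high in B cell markers, which was the lowest of the treated libraries in summed Ms4a transcripts at 1225 CPM, the log2 changes were 1.57 for Ms4a6d, 1.54 for Ms4a4c, 0.95 for Ms4a6b and 0.76 for Ms4a6c, and all 4 still passed. Macrophage marker sums were 829 to 1104 CPM untreated and 494 to 801 CPM treated in these cells, with 3 of 9 markers tested called higher and 2 lower, and monocyte marker sums were 3305 to 4741 and 2092 to 3326 CPM; their part in the changes was not tested.

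A pair of scarce members moved in the same cells but were left out of the test by the minimum mean of 25 counts. Ms4a4b, the close copy of Ms4a4c, had 8, 10, 11 and 16 counts untreated and 26, 26, 31 and 51 treated, or 2.71 to 4.37 against 6.91 to 15.5 CPM. Ms4a7 was at 0.677 to 4.37 CPM untreated and 7.57 to 12.7 CPM treated. Neither overlapped. With no filter on low counts, the log2 changes were 1.57 ± 0.36 for Ms4a4b (adjusted p = 0.00114) and 1.62 ± 0.39 for Ms4a7 (adjusted p = 0.00232), where 7.70% of all genes in that fit passed. Part of the Ms4a4b value could be reads of Ms4a4c, given the shared stretches, and that was not tested. The T and NK cell markers summed to 9.43 to 14.6 CPM untreated and 7.72 to 8.49 CPM in 3 treated libraries, with 78.4 CPM in the treated library that was also high in B cell markers.

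In tumor PMN-MDSC, Ms4a4c and Ms4a6c rose and 0 fell of 6 members tested, where 2.29% of all tested genes rose and 3.36% passed in either direction. Ms4a4c was at 11.01, 15.2, 17.6 and 22.1 CPM untreated and at 45.5, 88.8, 89.5 and 120.4 CPM treated. All treated libraries lay above all untreated ones, as in 6.93% of all tested genes, and the change was 5.17-fold (log2 2.37 ± 0.31, adjusted p = 0.00225). It passed with each of the 8 libraries left out, at 2.15 to 2.58. Ms4a6c was at 113, 122, 140.2 and 146 CPM untreated and 173, 253, 283 and 288 CPM treated, also without overlap (log2 0.91 ± 0.19, adjusted p = 0.0281), but lost the call without any of 6 of the 8 libraries, at changes of 0.83 to 0.97 and an adjusted p of 0.0543 to 0.0988.

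The remaining 4 members tested in tumor PMN-MDSC did not pass by edgeR, and DESeq2 called Ms4a6d as well (log2 0.80, adjusted p = 0.0189), where it called 7.38% of all tested genes. Ms4a6d was at 81.3, 82.5, 85.5 and 104 CPM untreated and 95.2, 169, 178 and 180.05 CPM treated, with 1 treated library inside the untreated range (log2 0.80 ± 0.21, adjusted p = 0.0745), and passed at 0.97 without it (adjusted p = 0.01). Ms4a7 and Ms4a6b had log2 differences of 0.80 ± 0.28 and 0.85 ± 0.31 with overlapping groups (adjusted p = 0.153 and 0.174), and Ms4a7 passed at 1.02 without 1 treated library (adjusted p = 0.0192). Ms4a4a was at 43.7 to 92.9 and 47.4 to 104 CPM, a log2 difference of 0.14 ± 0.27 (adjusted p = 0.83). The macrophage marker sums of treated and untreated libraries overlapped here, and neutrophil marker sums were 1430 to 4485 CPM untreated and 3714 to 11729 CPM treated, with all 10 markers at log2 differences above 0, a median of 1.42 and 0 called. Monocyte marker sums were 1842 to 2418 CPM untreated and 1086 to 1870 CPM treated, with 1 of 6 markers called higher and 1 lower. The part of these lists in the changes was not tested.

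**Figure D4:**
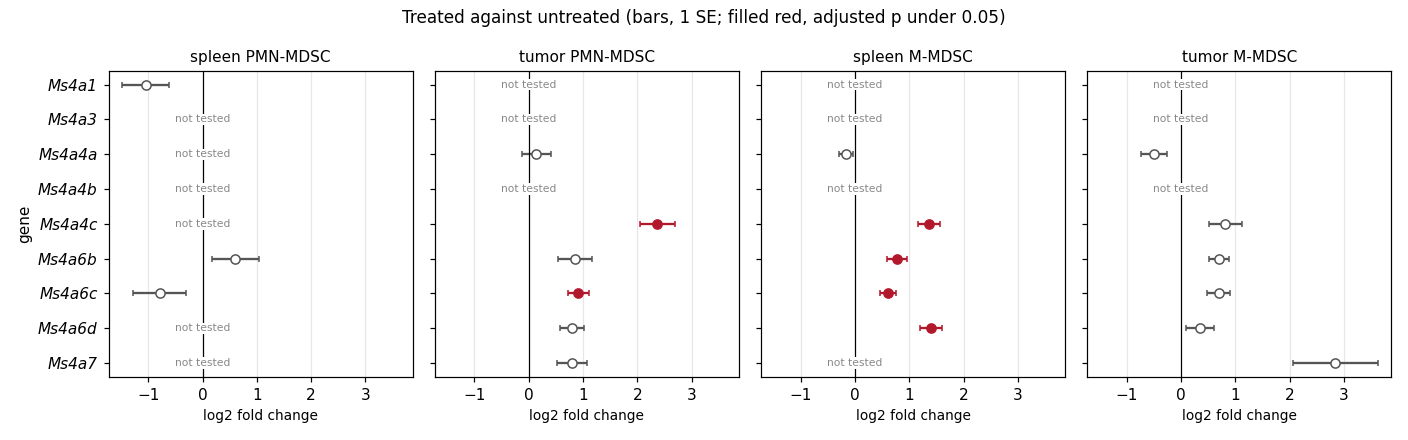
Log2 fold changes of treated against untreated libraries (horizontal axis) of the 9 genes (vertical axis) in the 4 sorted populations, with bars of 1 SE; filled red points passed an adjusted p of 0.05. Ms4a4c rose by 2.37 in tumor PMN-MDSC and by 1.36 in spleen M-MDSC, Ms4a4a lies between -0.50 and 0.14 in the 3 populations in which it was tested, and the widest bar is that of Ms4a7 in tumor M-MDSC.

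In tumor M-MDSC, 0 of 6 members passed by edgeR's quasi-likelihood test, where 2.88% of all tested genes did, and DESeq2 called 3 of them, Ms4a6b, Ms4a6c and Ms4a7, where it called 9.53% of all tested genes. At an unadjusted p of 0.05, 4 members passed, where 19.2% of all tested genes did. Ms4a6c was at 216, 285, 296 and 342 CPM untreated and 418, 439 and 538 CPM treated, and Ms4a6b at 139 to 167 and 198 to 269.96 CPM. Neither overlapped, as in 10.1% of all tested genes, and the log2 differences were 0.69 ± 0.21 (adjusted p = 0.107) and 0.70 ± 0.18 (adjusted p = 0.0707). Ms4a4c was at 94.5 to 152 CPM untreated and 115, 247 and 272 CPM treated (log2 0.81 ± 0.31, adjusted p = 0.181). Monocyte marker sums were lower in the treated libraries, at 1979 to 3188 against 5223 to 5913 CPM, with 0 of 6 markers called, and their part in these values was not tested.

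The size of the Ms4a7 difference in tumor M-MDSC depended on 1 library. Ms4a7 was at 7.07, 24.3, 41.997 and 43.8 CPM untreated and at 51.0, 119 and 469.5 CPM treated, so the groups did not overlap and the treated ones spanned a wide range (log2 2.84 ± 0.78, adjusted p = 0.0863). The fit over all 9 conditions called it at 2.84 (adjusted p = 0.000386), where 9.68% of all tested genes passed. The library at 469.5 CPM was the one with the macrophage marker sum of 27354 CPM. Without it the log2 difference of Ms4a7 was 1.51 ± 0.58 (adjusted p = 0.211), with the remaining treated libraries still above all untreated ones, and Ms4a4c and Ms4a6b passed instead, at 1.12 ± 0.22 and 0.84 ± 0.17 (adjusted p = 0.0257 and 0.0282). Without another treated library the Ms4a7 difference was 3.34 and passed (adjusted p = 0.0312). All 10 macrophage markers were detected in both groups, and among the 3 treated libraries Ms4a7 had the same order as the marker sum. The part of these cells in the result was not tested.

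**Figure D5:**
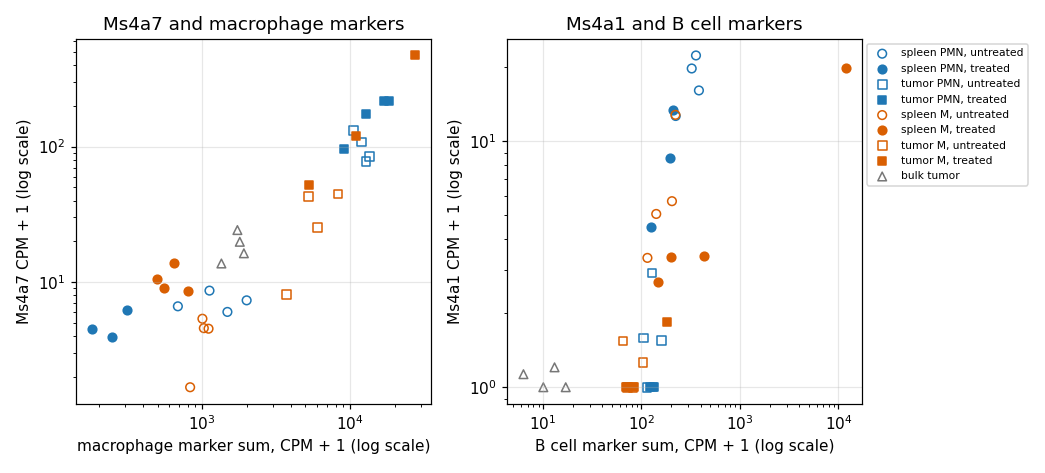
Left, Ms4a7 against the sum of 10 macrophage markers, and right, Ms4a1 against the sum of 10 B cell markers, as CPM + 1 on log axes with 1 point for each of 34 libraries (circles, spleen; squares, tumor; triangles, bulk tumor; open, untreated; filled, treated; blue, PMN-MDSC; orange, M-MDSC). The treated tumor M-MDSC library at 469.5 CPM of Ms4a7 and the treated spleen M-MDSC library at 18.9 CPM of Ms4a1 lie at the right edge of their panels.

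In spleen PMN-MDSC, 0 of 3 members tested passed (edgeR quasi-likelihood test), where 11.6% of all tested genes did, DESeq2, which called 18.6% of all tested genes, also called 0, and 1 had an unadjusted p under 0.05, where 27.4% of all tested genes did. That gene was Ms4a1, at 11.7 to 21.3 CPM untreated and 3.48, 7.57 and 12.4 CPM treated (log2 -1.05 ± 0.43, adjusted p = 0.158). It had 4, 15 and 21 counts treated and reached the minimum mean of 25 counts through the untreated libraries. B cell marker sums were 222 to 382 CPM untreated and 124 to 207 CPM treated. Macrophage marker sums were 685 to 2000 CPM untreated and 180 to 309 CPM treated, without overlap, and 8 of 9 macrophage markers tested fell. Neutrophil marker sums were 22161 to 41045 CPM untreated and 47119 to 81524 CPM treated, also without overlap. Monocyte marker sums were 655 to 1227 and 1003 to 1841 CPM, which overlap. The part of these lists was not tested. Ms4a6c was at 17.3 to 59.4 and 13.0 to 29.3 CPM, a log2 difference of -0.79 ± 0.48, and Ms4a6b at 16.1 to 29.7 and 13.0 to 48.5 CPM, a difference of 0.60 ± 0.43, both overlapping. Ms4a4c had 7 to 34 counts in the treated libraries and was not tested. Ms4a4a, also not tested, had 7, 13, 13 and 36 counts untreated and 2, 3 and 4 treated, or 2.68 to 10.4 and 1.01 to 3.48 CPM, which overlap.

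Treatment effects were then compared between populations by an interaction term. In the spleen, Ms4a6d had a difference of 2.16 ± 0.48 on the log2 scale, more in M-MDSC than in PMN-MDSC (adjusted p = 0.0135), the 1 member past the threshold among 5 tested by edgeR, where 10.9% of all tested genes passed. DESeq2 called Ms4a4a and Ms4a6c as well, where it called 15.4% of all tested genes. At an unadjusted p of 0.05, 3 members passed there, against 27.6% of all tested genes. In PMN-MDSC of spleen, Ms4a6d was at 6.89 to 19.9 CPM untreated and 4.14 to 8.70 CPM treated, that is 17 to 69 and 7 to 16 counts, too few to be tested in those cells alone, so that it entered this comparison through M-MDSC, where it is high. The value is therefore given as a description of few counts. The same holds for Ms4a4a, with 7 to 36 counts untreated and 2 to 4 treated in PMN-MDSC of spleen. In the same comparison 6 of 9 macrophage markers tested were called higher, with a median of 3.36, and their part in the result was not tested. Between tumor and spleen, 0 of 6 members passed in PMN-MDSC by edgeR, where 3.50% of all tested genes did, 5 had an unadjusted p under 0.05, where 16.5% did, and DESeq2 called 2, where it called 6.23% of all tested genes. The differences that came nearest were 1.71 ± 0.47 for Ms4a6c and 1.64 ± 0.48 for Ms4a6d (adjusted p = 0.0605 and 0.0748), larger in tumor, where 8 of 10 macrophage markers were called larger in tumor. Ms4a6d was not tested in spleen PMN-MDSC alone and entered this comparison through tumor, where it is high. For Ms4a4c, which passed in tumor and was not tested in spleen, the difference was 1.82 ± 0.61 (adjusted p = 0.122). In M-MDSC, 0 of 6 passed between tumor and spleen by edgeR, where 0.790% of all tested genes did, and by DESeq2, where 3.52% did, and 1 had an unadjusted p under 0.05, where 14.2% did. In tumor, 0 of 6 passed between the cell types by edgeR, where 0.0239% did, and by DESeq2, where 0.262% did, with 2 at an unadjusted p under 0.05, where 8.59% were. The median over all tested genes was 0.11 in the PMN-MDSC comparison of organs and within 0.1 of 0 in the other 3.

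In bulk tumor of untreated mice the 9 genes were scarce. They summed to 48.8 ± 11.9 CPM (SD, n = 4), and Ms4a6c with 5.77 ± 1.51, Ms4a4a with 5.37 ± 1.03 and Ms4a7 with 3.94 ± 1.02 FPKM led. Against tumor M-MDSC, 5 of 6 members tested were lower in bulk tumor, where 31% of all tested genes were lower and 69.2% passed, by 4.48 to 7.29 on the log2 scale, and against tumor PMN-MDSC 5 of 5 were lower, where 32.8% were and 69.7% passed, by 2.71 to 4.41. Ms4a4c was at 0.26, 0.922, 1.03 and 1.04 CPM in bulk tumor, or 2, 4, 9 and 10 counts, about 157-fold under tumor M-MDSC (log2 -7.29 ± 0.34, adjusted p = 1.84e-08). The lowest of these libraries is under the floor, and Ms4a4c reached the minimum mean of 25 counts through tumor M-MDSC. Its fold is therefore a description of few counts. Ms4a7 was at 12.7, 15.3, 18.8 and 23.2 CPM, inside the range of tumor M-MDSC, and did not pass against them (log2 -0.93 ± 0.44, adjusted p = 0.0789). The median over all tested genes was 0.17 and 0.11 in these comparisons, so the scale was not centered on 0. In bulk tumor against tumor M-MDSC, 6 of 6 monocyte markers were lower (median log2 difference -5.93) and 9 of 10 macrophage markers were lower (-3.44), and epithelial tumor cell markers summed to 3592 to 5764 CPM in bulk tumor and 13.6 to 228 CPM in tumor M-MDSC; their part in these differences was not tested. The 12 other family genes in the table, described below, summed to 149 to 290.1 CPM in bulk tumor and 149 to 238 CPM in tumor M-MDSC. Most of the bulk tumor sum came from the related Tmem176b and Tmem176a, with 688 to 2286 and 81 to 387 counts. Ms4a14 had 41 to 80 and Ms4a8a 1 to 32 counts there.

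Ms4a3, the marker of granulocyte-monocyte progenitors, was present mainly in spleen M-MDSC. It was at 2.36, 6.99, 8.29 and 9.82 CPM untreated and 0.606, 4.25, 8.39 and 17.4 CPM treated, which overlap widely, and at 0 counts in all 4 untreated tumor PMN-MDSC libraries. In M-MDSC of untreated mice it had 6, 16, 29 and 44 counts in spleen and 0, 0, 1 and 5 in tumor, and with no filter on low counts it was called lower in tumor (adjusted p = 9.04e-06), where 15% of all genes in that fit passed in either direction, and 3 of the 4 tumor libraries were under the floor. The 6 progenitor markers, among them Mpo, Elane and Ctsg, summed to 67.3 to 173 CPM in untreated and 35.8 to 285 CPM in treated spleen M-MDSC, with all 6 detected, and to 3.83 to 136 CPM in untreated tumor M-MDSC. In untreated tumor PMN-MDSC, Elane and Ctsg were at 0. Ms4a1 was at 0 in all treated tumor PMN-MDSC libraries and at most 1.91 CPM in any other tumor library. In the treated spleen M-MDSC library high in B cell markers, Ms4a1 was at 18.9 CPM, against 1.68, 2.39 and 2.42 CPM in the other 3.

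The other genes of the family were described from a list of 15, of which 12 were in the table, and 4 had enough counts to test in at least 1 comparison. These were Ms4a8a, Ms4a14 and the related Tmem176a and Tmem176b. After treatment, Tmem176a and Tmem176b fell in spleen PMN-MDSC, where 5.52% of all tested genes fell, and in spleen M-MDSC, where 9.48% fell, and 0 of the 4 passed in tumor PMN-MDSC or tumor M-MDSC by edgeR. In spleen M-MDSC, Tmem176b was at 129, 159, 198 and 209.8 CPM untreated and 5.30, 9.40, 16.1 and 41.2 CPM treated, and fell by 3.28 ± 0.53 on the log2 scale (adjusted p = 0.00361). Tmem176a was at 49.5 to 77.4 and 4.92 to 26.1 CPM in the same cells and fell by 2.31 ± 0.46 (adjusted p = 0.00822). Both were lower without overlap, as in 11.7% of all tested genes. In spleen PMN-MDSC, Tmem176b had 31 to 343 counts untreated and 2, 4 and 5 treated, and Tmem176a 18 to 141 and 0, 0 and 2 counts (adjusted p = 0.018 for both), again without overlap, as in 14.3% of all tested genes. The treated counts lie near or under the floor, and both genes reached the minimum of the test through the untreated libraries. The macrophage markers given above fell in the same cells. Dendritic cell marker sums were also lower there, at 28.6 to 81.6 CPM untreated and 0.87 to 5.33 CPM treated with 5 and 3 of 6 detected, and the part of these lists in the result was not tested.

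Ms4a14 was at 35.9 to 58.7 CPM in tumor PMN-MDSC and 0.402 to 2.02 CPM in spleen PMN-MDSC of untreated mice, without overlap. In untreated tumors it was lower in M-MDSC, at 3.27 to 18.6 CPM, by a log2 difference of -2.01 ± 0.41 (adjusted p = 0.00774), an order it shared with Ms4a7. Ms4a8a was higher in spleen M-MDSC than in spleen PMN-MDSC, at means of 20.2 and 1.88 CPM (log2 3.44 ± 0.60, adjusted p = 0.000822), and passed in no treatment comparison in which it was tested. In untreated spleen PMN-MDSC it had 0, 2, 3 and 16 counts, so it reached the minimum mean of 25 counts through M-MDSC.

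Across the 30 MDSC libraries, members with enough counts varied together in log2(CPM + 1), apart from Ms4a7. Pearson's r was 0.96 between Ms4a6c and Ms4a6d and between Ms4a4c and Ms4a6b, and 0.77 to 0.96 over all pairs without Ms4a7. With Ms4a7 it was 0.10 to 0.46. The points share cell types, mice and depth, and r is a description. Outside the family, among 8536 genes, the most alike were Eef1a1 (r = 0.97), Pum3 (0.96) and Dusp3 (0.96) for Ms4a4a, Tifa (0.92) and BC147527 (0.91) for Ms4a4c, and Tifa (0.94), Xrn2 (0.93) and Ehmt2 (0.92) for Ms4a6b. For Ms4a6c they were Rasa4, Tlr9 (0.95 each) and Lat2 (0.94), for Ms4a6d Kars, Anxa4 (0.96 each) and Spon1 (0.95), and for Ms4a7 Cd72 (0.98), Zmynd15 (0.97) and Sorbs3 (0.96).

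The promoters of 7 of the 9 members were found in RefSeq on GRCm38.p6 as windows from 250 bases before to 50 after the start, with 8 windows in all; Ms4a1 and Ms4a6d had none. Cores of 2 motifs tied to interferon signaling were searched on both strands, that of the interferon-stimulated response element (GAAA, any 2 bases, GAAA) and that of the gamma-activated site (TTCNNNGAA). They were found in 0 of the 8 windows, against 3.44% and 8.30% of 32851 promoter windows of the genome, which says only that these letters are not in these windows.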

How the data were processed

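Libraries of PMN-MDSC, M-MDSC and bulk tumor were analyzed from 1 table in which the authors deposited raw read counts per gene, one column a library. Per the labels and the methods of the study, RNA from sorted cells was made into libraries with a stranded Pico-input kit by PCR without molecular identifiers, reads were mapped to mm10 (GRCm38) with ContextMap and BWA, and counts per gene were made by strand with featureCounts (Subread 1.4.6-p3) on Gencode v16. Columns were assigned to conditions by their names, and 1 treated tumor M-MDSC library with 10 counts was left out, leaving 34 of 35. Antisense BE692007 overlaps Ms4a6c and held 0 to 28 counts in MDSC.

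Computations used R 4.3.3 with edgeR 4.0.16 and limma 3.58.1, DESeq2 1.42.0 and Python 3.11.15. Only genes whose counts averaged 25 or more in a comparison entered edgeR's two-sided quasi-likelihood F-test with TMM scaling and robust estimates, each comparison on its own libraries, and p-values were adjusted by Benjamini-Hochberg over all genes tested. A call is an adjusted p under 0.05. SE is the absolute log2 fold change over the root of F. Symbols, positions and exon lengths came from GENCODE M21 by Ensembl identifier (53274 of 53379 matched). Over 48 pairs of libraries within conditions chi-square over its degrees of freedom reached at least 6.88, so none was counted as a copy. Alternatives were DESeq2, RLE scaling, scaling to the library total, no filter, a fit over all 9 conditions, no robust estimates, an adjusted p under 0.001 with at least 2-fold, and each library left out. The fits were tested on simulated data. All 9 members are given, and the 3 most alike genes are those with the highest Pearson's r; 1 of those of Ms4a4c and 1 allele of the tumor line are not reported here. Members, lists and rules were chosen with earlier results of these data known.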

Additional observations from a re-analysis of the deposited data

Results flagged for a closer look

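Among 55 groups of 4 libraries in which a member was assessed, 5 held a library far from the other 3 by Dixon's criterion, which flags about 1 in 20 groups by chance. Ms4a1 was at 18.9 CPM in 1 treated spleen M-MDSC library, against 1.68 to 2.42 CPM in the others. Ms4a4c was at 161 CPM in 1 untreated spleen M-MDSC library, against 109.7 to 115 CPM, and at 0.26 CPM in 1 bulk tumor library, against 0.922 to 1.04 CPM. Ms4a6b was at 29.7 CPM in 1 untreated spleen PMN-MDSC library, against 16.1 to 18.0 CPM. Ms4a6d was at 95.2 CPM in 1 treated tumor PMN-MDSC library, against 169 to 180.05 CPM.

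Sums over marker lists stood apart in the same way. In treated spleen M-MDSC the B cell sum was 11885 CPM in 1 library, against 148 to 428 CPM, and the T and NK cell sum 78.4 CPM, against 7.72 to 8.49 CPM. The T and NK cell sum was 8.71 CPM in 1 untreated tumor M-MDSC library, against 15.7 to 16.6 CPM. The epithelial marker sum was 6.77 CPM in 1 untreated spleen M-MDSC library, against 0.437 to 0.942 CPM. The sum of the other Ms4a family genes was 146 CPM in 1 untreated spleen PMN-MDSC library, against 30.2 to 41.7 CPM. In that condition Tmem176b and Tmem176a reached 343 and 141 counts, against at most 16 for Ms4a8a and 7 for Ms4a14.

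The treatment effect on Ms4a6d differed between M-MDSC and PMN-MDSC of the spleen by 2.16 on the log2 scale (edgeR interaction term, adjusted p = 0.0135), with 7 to 16 counts of it in the treated PMN-MDSC libraries, too few to be tested in PMN-MDSC alone, so it entered the comparison through M-MDSC and the value is a description.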

How the results depend on the processing

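No paired analysis was possible because the columns of the table carry no mouse number and were assigned to conditions by name only. The sample titles do carry a replicate number, and the running numbers of the columns follow the order of the titles. A match by that order was not made. Comparisons across organs or cell types, and the differences of treatment effects, therefore treated libraries of 1 mouse as independent. How far pairing would change them was not tested. Of the alternative counts of members that passed, 191 stayed within 1.5 times the reported count and 36 did not, and the cause was not tested. With the threshold at an adjusted p under 0.001 and at least 2-fold, 0 members passed for treatment in tumor PMN-MDSC (reported 2) and spleen M-MDSC (4), 0 for tumor against spleen in M-MDSC (4), 1 for M-MDSC against PMN-MDSC in tumor (6), and 0 for the difference of treatment effects between the cell types in spleen (1). With no filter on low counts, 5 passed for treatment in tumor PMN-MDSC and 1 in tumor M-MDSC (0), and for the differences of treatment effects 4 passed between organs in PMN-MDSC (0), 1 in M-MDSC (0), 4 between cell types in spleen (1) and 1 in tumor (0). With DESeq2, 3 passed for treatment in tumor M-MDSC, where 9.53% of all tested genes did. It called 2 for the difference between organs in PMN-MDSC (6.23% of all tested genes) and 3 for that between cell types in spleen (15.4%). In the fit over all 9 conditions, 2 passed for treatment in spleen M-MDSC, 1 in tumor M-MDSC, 2 for tumor against spleen in M-MDSC, 4 for the difference between organs in PMN-MDSC and 3 for that between cell types in spleen. Without the libraries high in B cell or macrophage markers, chosen after seeing the data, 2 passed for treatment in tumor M-MDSC. All of these counts describe how far the calls moved. The share of all genes that passed is given beside only some of them, so they are no result about the members.

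With each library left out, the counts ranged from 0 to 0 for treatment in spleen PMN-MDSC, 1 to 3 in tumor PMN-MDSC, 2 to 4 in spleen M-MDSC and 0 to 2 in tumor M-MDSC, 5 to 6 and 3 to 4 for tumor against spleen in PMN-MDSC and M-MDSC, 5 to 6 for the cell types in either organ, 5 to 6 and 5 to 5 for bulk tumor against M-MDSC and PMN-MDSC, and, for the differences of treatment effects, 0 to 2 and 0 to 0 between organs and 1 to 3 and 0 to 0 between cell types. Log2 values that changed sign, none of them called, ranged from -0.032 to 0.33 for Ms4a4a under treatment in tumor PMN-MDSC and from -0.22 to 0.080 for Ms4a4c between organs in M-MDSC. For differences of treatment effects they ranged from -0.069 to 0.71 for Ms4a6b between organs in PMN-MDSC, in M-MDSC from -0.20 to 0.061 for Ms4a6b, from -0.045 to 0.17 for Ms4a6c and from -0.085 to 1.70 for Ms4a7 (-0.17 without the libraries high in markers), and for Ms4a6b from -0.26 to 0.53 between cell types in spleen and from -0.36 to 0.14 in tumor.

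Over all genes, the count for treatment in spleen PMN-MDSC was 844 and became 1354 with DESeq2, 1818 with no filter, 1697 in the fit over all conditions and 307 to 1002 with a library left out. In tumor PMN-MDSC it was 279, with 613, 864 and 110 to 276 by DESeq2, no filter and left-out libraries, and in tumor M-MDSC 241, with 797, 1064, 809 and 30 to 531 in the order given for spleen PMN-MDSC. In spleen M-MDSC it was 1716, and 1088 to 1808 with a library left out. With no filter it went from 2357 to 3662 for tumor against spleen in M-MDSC, from 990 to 1658 for the cell types in tumor (640 in the fit over all conditions) and from 7767 to 11698 for bulk tumor against PMN-MDSC. For the differences of treatment effects, DESeq2, no filter and the fit over all conditions gave 501, 676 and 537 between organs in PMN-MDSC (282). The same alternatives gave 307, 659 and 145 for M-MDSC (69), and 22, 161 and 0 between cell types in tumor (2), and no filter gave 1590 between cell types in spleen (914). Depth limits Ms4a1, Ms4a3 and Ms4a4b most, whose counts were near the floor in many libraries.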
